A study of Mus musculus with 20 samples.

Results

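The AP-1 transcription factor genes Fos, Fosb, Fosl1, Fosl2, Jun, Junb, Jund, Batf and Batf3 were examined, 9 of the 21887 protein-coding genes of the mouse GRCm38 annotation. All peaks that overlapped a member or the 25 kb on either side of it were taken, which gave 323 of the 267215 peaks in 10 lists. The peaks mark histone H3 acetylated at lysine 27 (H3K27ac), a modification of active promoters and enhancers, measured by ChIP-seq (chromatin immunoprecipitation and sequencing) of Raw264.7 cells, an established mouse macrophage line that the cytokine RANKL can drive towards osteoclasts. Cells were left untreated, given RANKL (50 ng/ml), given RANKL with the BET bromodomain inhibitor I-BET (500 nM), or given I-BET alone, for 4 h. The first 3 groups had libraries numbered 1, 2 and 3, and I-BET alone had 1 library, numbered 3. Nothing in the labels says that replicates came from separate cultures, and p-values therefore cover the spread of these libraries only, which can be technical.

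AP-1 is a family of dimers. Fos proteins (FOS, FOSB, FOSL1, FOSL2) cannot pair with each other and need a Jun partner, while Jun proteins (JUN, JUNB, JUND) pair with Fos proteins or among themselves, and BATF and BATF3 are smaller relatives that pair with Jun proteins. Several of these genes belong to the immediate early genes, whose transcription is switched on within minutes by kinase signalling without new protein synthesis. In the osteoclast lineage FOS is required for differentiation and acts upstream of NFATc1, the main transcription factor of the programme, and BET proteins are readers of acetylated histones that I-BET displaces.

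The lists differed in length before any gene was considered. Libraries numbered 1 and 3 and I-BET alone had 13368 to 17794 peaks over 16.1 to 25.9 Mb, with the RANKL lists longest. RANKL replicate 2 stood apart with 141905 peaks over 184.6 Mb, and it had peaks within 1 kb of an end of 10 of 10 lymphocyte, 6 of 10 fibroblast and osteoblast and 9 of 10 other tissue marker genes, against at most 2, 0 and 0 of 10 in the other lists. RANKL+I-BET replicate 2 was the shortest at 3.44 Mb, and its weakest peak had a -log10 q of 2.00, against 0.319 to 0.655 in the other lists. Macrophage markers had such peaks at 6 to 10 of 10 genes in all 10 lists. The libraries numbered 2 are therefore given but kept out of the main tests, entering only an alternative fit of all 9 libraries, and their part in any value that rests on them is shown by giving it with and without them. The lists hold no read counts, and with the depth unknown no counting error is given. In a bulk sample, acetylation in more cells and more acetylation per cell cannot be told apart.

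The promoters are shown first because the acetylated start sites separated the family. Fos, Fosl2, Jun and Junb had a peak within 1 kb of the transcription start in all 10 lists, whereas Batf had one in RANKL replicate 2 alone. The 250 bases upstream of each start are from RefSeq (GRCm38.p6), where 8 of the 9 members have an entry. Capitals mark TGACG, the core of the cAMP response element TGACGTCA, and in Jun the elements TTACCTCA and TGACATCA, known as the distal and proximal sites through which JUN with ATF2 regulates its own gene.
Fos (chr12:85473640-85473889, + strand): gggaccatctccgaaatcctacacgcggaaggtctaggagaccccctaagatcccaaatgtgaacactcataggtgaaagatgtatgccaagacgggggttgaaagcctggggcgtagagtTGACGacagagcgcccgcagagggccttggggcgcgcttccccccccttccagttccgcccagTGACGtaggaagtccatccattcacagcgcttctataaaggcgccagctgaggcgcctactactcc
Fosl2 (chr5:32136222-32136471, + strand): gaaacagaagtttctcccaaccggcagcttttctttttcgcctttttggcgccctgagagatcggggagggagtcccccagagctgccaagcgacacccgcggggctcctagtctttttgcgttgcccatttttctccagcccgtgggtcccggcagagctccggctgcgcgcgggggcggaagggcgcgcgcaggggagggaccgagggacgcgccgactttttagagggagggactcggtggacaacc
Jun (chr4:95052223-95052472, - strand): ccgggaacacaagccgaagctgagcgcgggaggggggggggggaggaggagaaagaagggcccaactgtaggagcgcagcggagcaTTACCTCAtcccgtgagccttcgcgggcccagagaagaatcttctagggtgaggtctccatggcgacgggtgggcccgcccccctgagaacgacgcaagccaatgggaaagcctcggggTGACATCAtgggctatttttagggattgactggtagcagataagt
Junb (chr8:84978749-84978998, - strand): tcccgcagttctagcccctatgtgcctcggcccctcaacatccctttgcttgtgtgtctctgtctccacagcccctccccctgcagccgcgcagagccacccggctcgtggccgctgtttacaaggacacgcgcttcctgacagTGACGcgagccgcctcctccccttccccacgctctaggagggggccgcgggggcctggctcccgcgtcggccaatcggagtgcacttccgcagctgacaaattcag
Batf (chr12:85686470-85686719, + strand): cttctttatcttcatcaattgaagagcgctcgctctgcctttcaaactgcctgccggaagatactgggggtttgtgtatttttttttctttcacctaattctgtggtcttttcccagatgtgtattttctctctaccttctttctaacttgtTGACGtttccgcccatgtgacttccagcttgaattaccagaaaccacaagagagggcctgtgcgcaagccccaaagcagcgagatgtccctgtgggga

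Both strands were searched. TGACG was present in the promoters of Fos, where it occurred 2 times, and of Fosb, Junb and Batf, and in 20.2% of all 21263 promoters. The longer Jun elements TTACCTCA and TGACATCA were present in 0.607% and 2.86% of all promoters and, among the members, in Jun only. Neither TGACGTCA (1.92% of promoters) nor the AP-1 element TGANTCA (6.13%) was found in the 8 member windows, which says only that these letters are not there. The box CCAAT was present in Jun and Junb and in 35.4% of all promoters. Guanine and cytosine made up 58.4% of the Fos promoter, 64.4% of Fosl2, 61.2% of Jun, 66.4% of Junb and 46.4% of Batf, against a median of 55.6% over all promoters. Batf3, which had no start peak in 9 of the 10 lists, had 76% and Jund, which had one in 9 of 10, had 47.6%, so base composition did not order the members by their start peaks.

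Fos, the founding member, lay among 5 acetylated regions, stretches covered by at least 2 of the 7 lists numbered 1 and 3. The region over its start ran from 2.11 kb upstream to 2.72 kb into the gene, and a longer region, chr12:85485530-85492173, lay 11.6 to 18.3 kb from the start, 8255 bp beyond the end of the gene and over no annotated gene. Both, with a region at -5.50 to -4.21 kb, were held by all 10 lists, that is, by at least 1 bp of a peak. Values by list are always given in the order of replicates 1, 2 and 3. The downstream region was covered for 6.42, 5.59 and 6.46 kb in the untreated lists, against 6.40, 6.64 and 5.95 kb in the RANKL lists, 6.64, 1.95 and 5.86 kb in the RANKL+I-BET lists and 5.48 kb in the I-BET list. Apart from the short RANKL+I-BET replicate 2, the triplicate groups overlapped, and the I-BET list was just below them. The start region was covered for 2.82 to 4.83 kb in the 10 lists. Over the whole window Fos had 11.8, 12.6 and 12.5 kb of peaks in the untreated lists, against 15.2, 26.8 and 13.0 kb in the RANKL lists, 15.4, 6.89 and 11.6 kb in the RANKL+I-BET lists and 11.0 kb in the I-BET list. All RANKL libraries were above all untreated ones, as in 33.3% of all genes, but RANKL replicate 3 was above the highest by less than 1 kb.

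**Figure D1:**
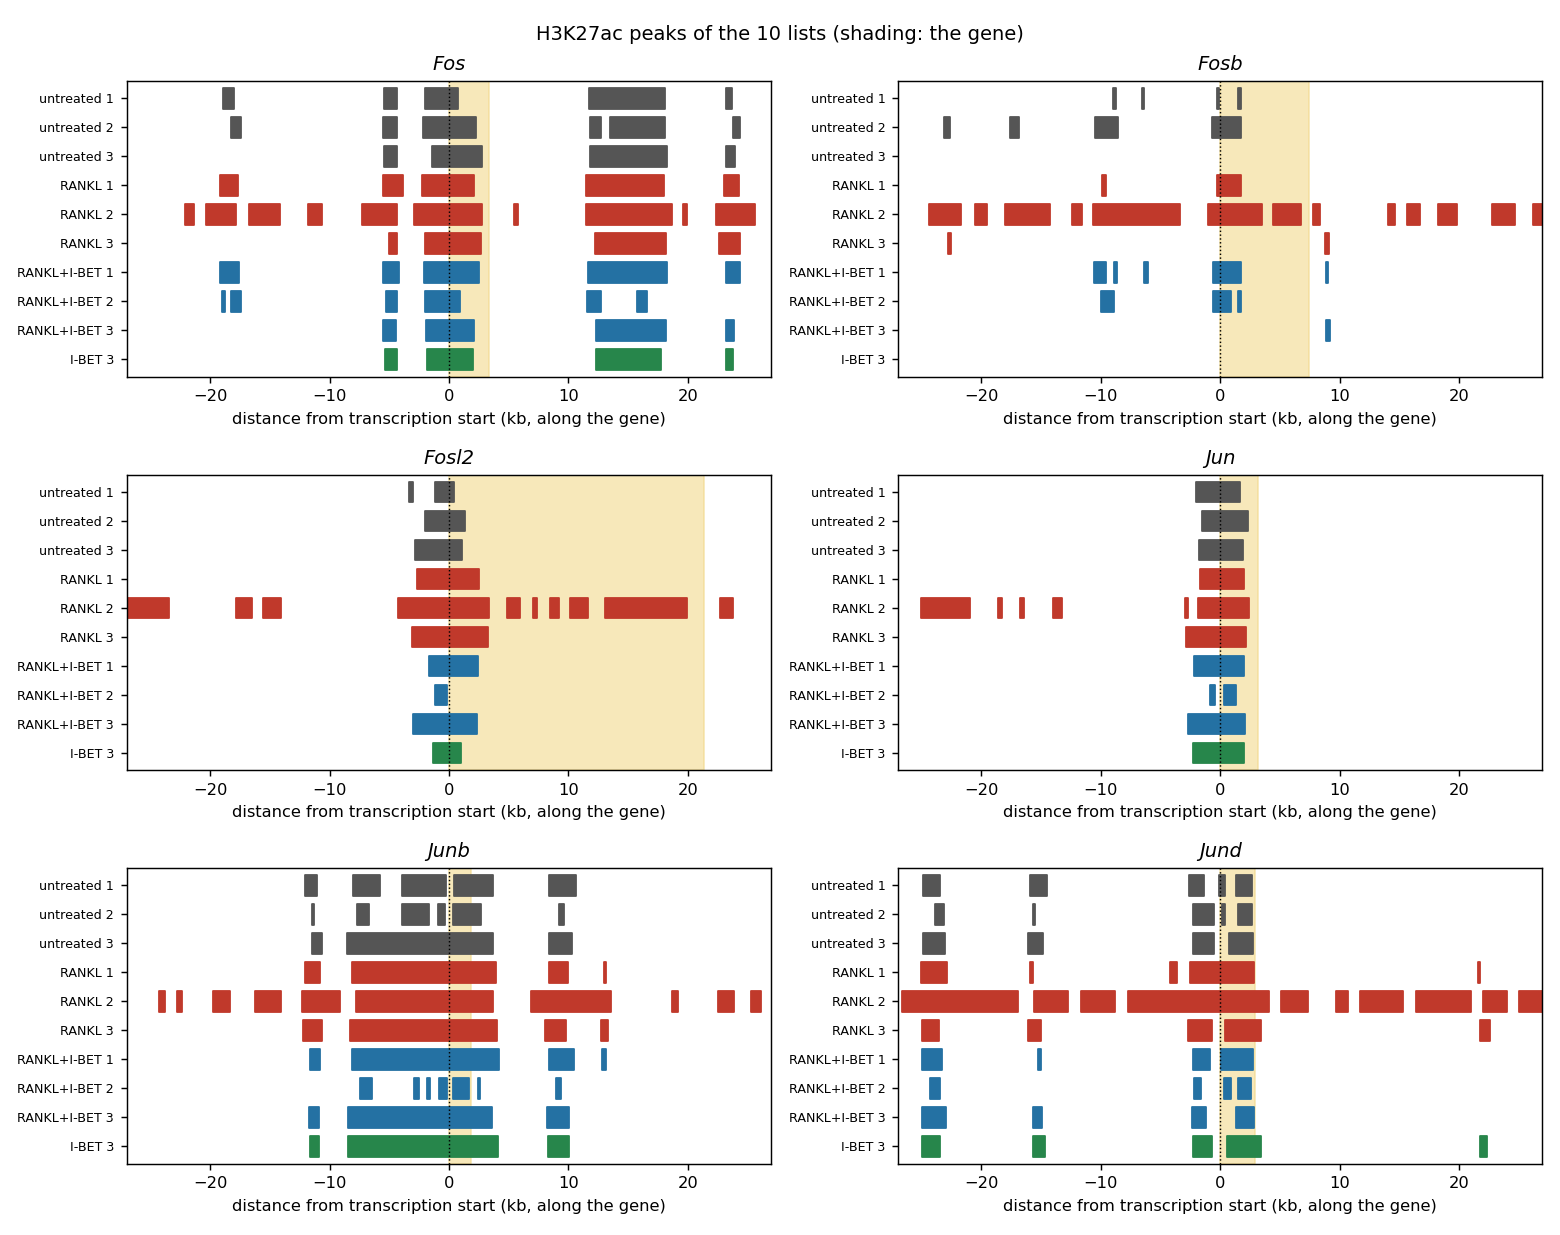
H3K27ac peaks of the 10 lists (rows, by group and replicate) at Fos, Fosb, Fosl2, Jun, Junb and Jund, by distance from the transcription start in kb along the gene, with the gene shaded; the windows of the longer genes run past the plotted range. Fos has peaks at its start and 11.6 to 18.3 kb downstream in every list, with the downstream block the longer one in all but RANKL+I-BET replicate 2, Fosl2 and Jun have 1 block over the start in most lists, and RANKL replicate 2 adds many peaks.

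A region at -19.1 to -17.7 kb from the Fos start followed the replicate number and not the treatment. It was held by all 6 lists numbered 1 and 2, with fold enrichments over the caller's background of 3.45 and 3.31 in untreated, 3.48 and 7.01 in RANKL and 6.75 and 4.45 in RANKL+I-BET cells, and by none of the 4 lists numbered 3. These fold enrichments are the authors' own value for a peak and serve as description only. Fosb, whose product resembles FOS and is likewise an immediate early protein, showed the same split at its own start. Its start region, chr7:19308285-19310306, was covered for 0.439 and 2.01 kb in the untreated lists numbered 1 and 2, against 2.02 and 2.02 kb in the RANKL lists, 2.02 and 1.44 kb in the RANKL+I-BET lists and 0 kb in all 4 lists numbered 3. Of all 18659 regions, 13 (0.0697%) were held by the 6 lists and absent from the 4, and the members had 2 of their 29 regions among them, a count made after the split was seen. The reverse split, held by all 4 lists numbered 3 and none of the other 6, was found at 12 regions and at none of the members'. The labels do not say what a replicate number stands for.

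Over its whole window Fosb had 0.853, 5.55 and 0 kb in the untreated lists, against 2.37, 30.6 and 0.903 kb in the RANKL lists, 4.14, 2.81 and 0.299 kb in the RANKL+I-BET lists and 0 kb in the I-BET list. The groups overlapped once replicate 2 was included, and of the libraries numbered 3 those given RANKL or RANKL+I-BET had a peak and the other 2 had none. The peaks of these libraries lay outside the gene.

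Fosl2 (FRA2), a Fos protein that is induced later and for longer than FOS, was the 1 member whose RANKL libraries 1 and 3 exceeded the untreated ones both as deposited and at one covered length. Of all genes with a peak in these lists, 49.8% did so as deposited and 18.3% at one covered length, so 1 of 9 members does not stand out. Acetylation formed 1 region, chr5:32133392-32138985, over the start, and the peak there was 1.57, 3.34 and 3.94 kb wide in the untreated lists, against 5.18, 7.68 and 6.33 kb in the RANKL lists, 4.15, 1.00 and 5.43 kb in the RANKL+I-BET lists and 2.31 kb in the I-BET list. Every RANKL library had a wider peak than every untreated library, and RANKL+I-BET overlapped both groups. The share of all start peaks that did so is not given, and the RANKL lists were longer than the untreated ones. By covered length of the window, every RANKL value was also above every untreated one, as in 33.3% of all genes. In libraries 1 and 3 the covered length of the window was 2.91 ± 1.45 kb (SD, n = 2) untreated and 5.76 ± 0.812 kb (SD, n = 2) with RANKL, and these 4 lists kept all of these peaks when reduced to one covered length. The difference was 0.94 on the log2(covered bp + 500) scale (SE 0.42), with an adjusted p of 0.929 by limma at one covered length and of 0.341 with the lists as deposited (unadjusted p = 0.0249), so it was not called. It was 0.49 without untreated replicate 1 and 1.39 without untreated replicate 3. With all 9 libraries reduced to the length of RANKL+I-BET replicate 2 the difference turned to -2.03. The fold enrichment of the start peak overlapped between the groups, at 2.20, 3.19 and 3.89 in untreated cells and 3.81, 3.73 and 3.07 with RANKL. I-BET alone, without RANKL, lay within the untreated range.

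Fosl1 (FRA1), the remaining Fos gene, had 0.859, 2.10 and 4.40 kb in the untreated lists, against 3.44, 33.4 and 6.34 kb in the RANKL lists, 3.66, 0 and 4.12 kb in the RANKL+I-BET lists and 3.01 kb in the I-BET list. Untreated replicate 3 was above RANKL replicate 1, so the groups overlapped. Of its 4 regions only chr19:5447770-5448972 lay over Fosl1, and the others lay over Drap1 and AI837181, over Ccdc85b and over Fibp. The region over Fosl1 was absent from untreated replicate 1 and RANKL+I-BET replicate 2 and held by the other 8 lists.

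**Figure D2:**
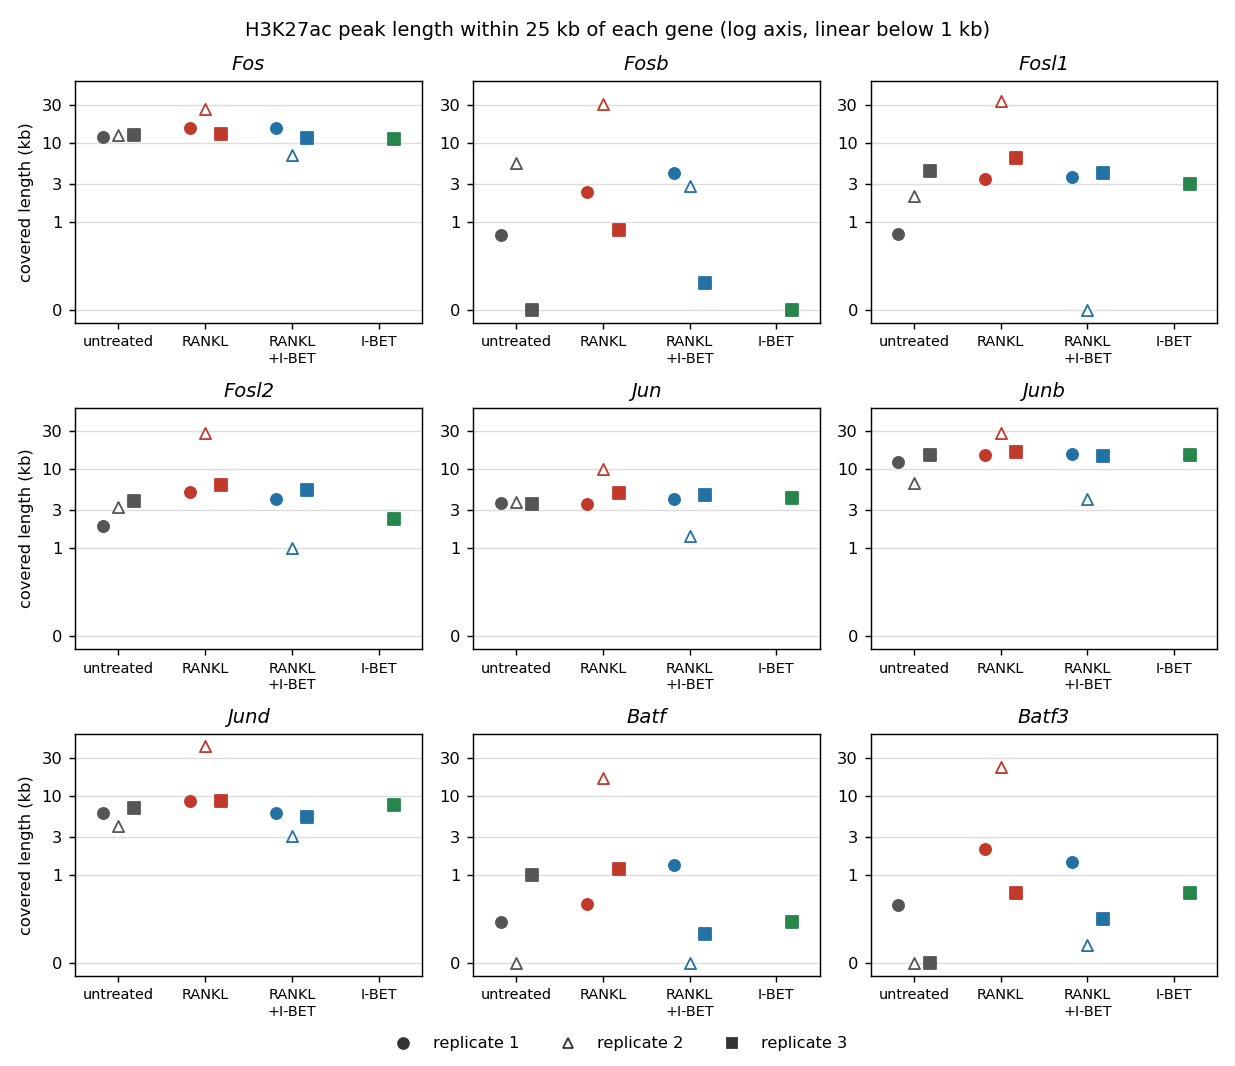
Covered length in kb (log axis, linear below 1 kb) within 25 kb of each of the 9 genes, 1 point per library, with the libraries numbered 2 as open triangles. RANKL replicate 2 is the highest point at all 9 genes. At Fos, Fosl2, Junb, Jund and Batf3 every RANKL point lies above every untreated point, as in 33.3% of all genes.

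Jun, which encodes the transactivating partner of most Fos dimers, had a single region over its start, chr4:95050132-95054896, in all 10 lists. Its window held 3.72, 3.82 and 3.67 kb in the untreated lists, against 3.64, 9.96 and 5.02 kb in the RANKL lists, 4.21, 1.42 and 4.77 kb in the RANKL+I-BET lists and 4.27 kb in the I-BET list. The untreated libraries had an SD of 0.077 kb (n = 3), and RANKL replicate 1 was below all of them. The log2 difference of RANKL from untreated was 0.19 (SE 0.35, limma adjusted p = 0.948), and that of RANKL+I-BET from RANKL was 0.06 (SE 0.35, adjusted p = 1.00).

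Junb, a Jun protein that is a weaker activator than JUN and can oppose it, had the longest acetylated domain of the family. The domain of 12541 bp, chr8:84974661-84987201, took in Junb and part of Prdx2, a peroxiredoxin gene, and was held by all 10 lists. Its parts in the peaks measured 9.18, 6.19 and 12.1 kb in the untreated lists, against 12.1, 11.4 and 12.3 kb in the RANKL lists, 12.2, 3.80 and 12.1 kb in the RANKL+I-BET lists and 12.5 kb in the I-BET list. The domain was thus near its full length in 7 lists, and the 3 shorter values were those of untreated replicates 1 and 2 and RANKL+I-BET replicate 2, the 3 shortest lists. In the window Junb had 12.4, 6.76 and 15.0 kb in the untreated lists, against 15.1, 28.3 and 16.2 kb in the RANKL lists, 15.6, 4.20 and 14.8 kb in the RANKL+I-BET lists and 15.0 kb in the I-BET list.

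The Junb comparison depended on how list length was handled. As deposited, RANKL minus untreated was 0.19 log2 units (SE 0.16, limma adjusted p = 0.453). At one covered length it was -1.23 (SE 0.63, adjusted p = 0.929), because the 12.3 kb peak of RANKL replicate 3, with a -log10 q of 2.75, was among those removed and its window went from 16.2 to 2.37 kb. Without that library the value at one covered length was -0.17, and without RANKL replicate 1 it was -2.30. RANKL+I-BET minus RANKL was likewise 1.37 (SE 0.63, adjusted p = 0.804) at one covered length, -0.04 as deposited, 0.30 without RANKL replicate 3 and 2.43 without RANKL replicate 1.

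Jund, the Jun gene expressed most steadily across conditions, had 5.95, 4.08 and 6.93 kb in the untreated lists, against 8.53, 42.0 and 8.45 kb in the RANKL lists, 6.04, 3.07 and 5.38 kb in the RANKL+I-BET lists and 7.57 kb in the I-BET list. Every RANKL library was above every untreated library, as in 33.3% of all genes, and above every RANKL+I-BET library, as in 19.1%. These groups include RANKL replicate 2, the longest list, and RANKL+I-BET replicate 2, the shortest. I-BET alone lay above the untreated range. In libraries 1 and 3 RANKL gave 8.49 ± 0.054 kb and RANKL+I-BET 5.71 ± 0.470 kb (SD, n = 2 each). RANKL+I-BET minus RANKL was -0.57 (SE 0.30, limma adjusted p = 0.835) at one covered length and -0.54 (SE 0.19, adjusted p = 1.00, unadjusted p = 0.0258) as deposited. It was not called under either. Its sign was the same in all settings tried, some of which leave the estimate unchanged by construction. RANKL minus untreated was 0.20 (SE 0.30, adjusted p = 0.940) at one covered length, 0.03 without RANKL replicate 1 and 0.38 without RANKL replicate 3.

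The Jund value came from several places in the window. At the start region, chr8:70697619-70701125, coverage was 1.90, 1.44 and 2.02 kb in the untreated lists, against 2.99, 3.51 and 3.02 kb in the RANKL lists, 2.66, 1.66 and 1.46 kb in the RANKL+I-BET lists and 2.79 kb in the I-BET list. All 3 RANKL values were above the values of both other triplicate groups, with the lists numbered 2 among them. The share of all regions that did so is not given. RANKL+I-BET replicate 3 was the 1 list without a peak within 1 kb of the Jund start, although its peak inside the gene still met the region. A further region, chr8:70719480-70720121 in Gm3336 and 21.7 kb from the Jund start, was held by all 3 RANKL lists, by I-BET alone (fold enrichment 7.59) and by no untreated or RANKL+I-BET list, though RANKL replicate 1 covered only 0.041 kb of its 642 bp.

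Batf and Batf3, which in immune cells pair with Jun proteins at composite sites with IRF factors, had little acetylation. Batf had 0.466, 0 and 0.991 kb in the untreated lists, against 0.665, 16.5 and 1.20 kb in the RANKL lists, 1.33, 0 and 0.325 kb in the RANKL+I-BET lists and 0.457 kb in the I-BET list. Its 2 regions lay inside the gene, 11.5 and 18.3 kb from the start, and the second was held by 8 of 10 lists. Batf3 had 0.659, 0 and 0 kb in the untreated lists, against 2.11, 22.9 and 0.789 kb in the RANKL lists, 1.45, 0.200 and 0.494 kb in the RANKL+I-BET lists and 0.789 kb in the I-BET list. All RANKL libraries of Batf3 were above all untreated ones, as in 33.3% of all genes, and those of Batf overlapped the untreated ones. No Batf3 region lay over the gene, 2 of its 3 regions lay in the neighbour Nsl1 and the third 661 bp from that gene, and no list but RANKL replicate 2 had a peak within 1 kb of either start.

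Per length of window, the family spanned a wide range in untreated replicates 1 and 3. Peaks covered 23.9% and 28.9% of the Junb window, 22.1% and 23.4% of that of Fos and 11.3% and 13.1% of that of Jund. Jun followed with 6.99% and 6.90%, Fosl2 with 2.64% and 5.52% and Fosl1 with 1.47% and 7.56%. Fosl1 overlapped Jun, Fosl2 and, narrowly, Fosb, while Jun and Fosl2 did not overlap each other. Fosb had 1.49% and 0%, Batf 0.644% and 1.37% and Batf3 1.09% and 0%, and they overlapped each other. They came last in these lists, except that Fosb was just above Fosl1 in untreated replicate 1. The order was not stable in untreated replicate 2, where Fos was at 23.5%, Junb at 13.0%, Fosb at 9.67%, Jund at 7.71%, Jun at 7.18%, Fosl2 at 4.68% and Fosl1 at 3.60%, and Batf and Batf3 had no peak. From 5 to 7 members had a start peak in each list other than RANKL replicate 2, while 18.1% to 42.9% of the 17492 genes with a start in the promoter table did. The member counts include Fosl1, which has no entry in that table and was judged at its lower coordinate.

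None of the 9 members, all of which passed the filter on mean covered length, was called in any comparison by limma at an adjusted p under 0.05. No gene at all was: of 10946 genes tested at one covered length, 0 (0%) were called for RANKL against untreated, 0 (0%) for RANKL+I-BET against RANKL and 0 (0%) for RANKL+I-BET against untreated. At an unadjusted p under 0.05 there were 575, 752 and 333 genes. With 2 libraries a group, an exact permutation test of a single gene could not go below p = 0.333. The members' differences for RANKL against untreated ran from -1.23 to 0.94 with a median of 0.19, against 0.03 over all genes tested. Of the members, 6 of 9 were above 0, beside 51.5% of all genes. As deposited all 9 were above 0 with a median of 0.38, but so were 92.8% of all genes, whose median was 0.44. For RANKL+I-BET against RANKL the members' median was 0.21 at one covered length (all genes 0.00) and -0.20 as deposited (all genes -0.14). Above 0 were 7 of 9 members at one covered length, beside 49.8% of all genes, and 1 of 9 as deposited, beside 26.8%. The sign of the family's median in this comparison thus turned with the scaling of the lists, as the plot of log2 differences shows.

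**Figure D3:**
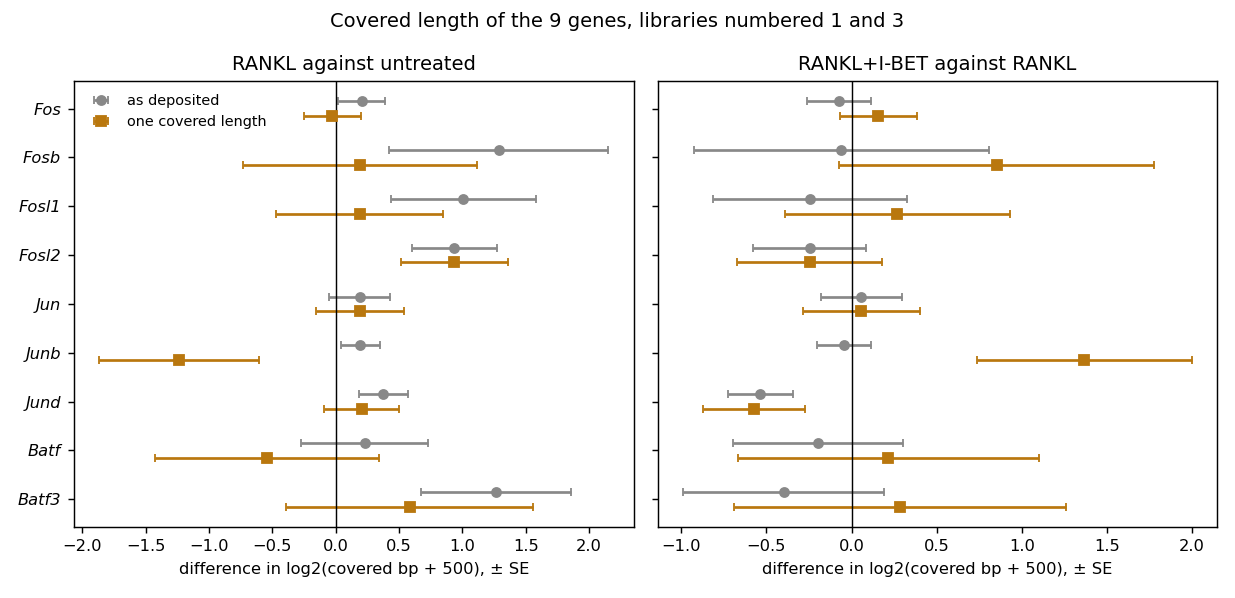
Difference in log2(covered bp + 500) for the 9 genes, with SE from limma, for RANKL against untreated (left) and RANKL+I-BET against RANKL (right), with lists as deposited (circles) and at one covered length (squares). Fosl2 is at 0.94 on the left and Jund below 0 on the right under both, while Junb moves from 0.19 to -1.23 on the left.

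Counting the members whose 2 RANKL libraries, numbered 1 and 3, both exceeded both untreated ones depended on list length in the same way. As deposited these were Fos, Fosb, Fosl2, Junb, Jund and Batf3, 6 of 9, where 49.8% of the 13951 genes with a peak in these lists did so, and 0 of 9 were lower in both, against 1.3%. At one covered length Fosl2 was the 1 member higher in both (background 18.3% of 13674 genes) and Junb the 1 lower (12.9%). For RANKL+I-BET against RANKL, 0 members were higher in both as deposited (5.9%) and 1, Jund, was lower (28.2%), whereas at one covered length Fosl1 and Junb were higher (13.3%) and Jund lower (15.4%). With all 3 libraries of each group as deposited, Fos, Fosl2, Junb, Jund and Batf3 had every RANKL value above every untreated value, where 33.3% of genes did. Jund alone had every RANKL+I-BET value below every RANKL value, where 19.1% of genes did. With 9 members, no share was tested against its background.

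The few regions gained or lost lay outside the members themselves, but only 9 of the 29 regions overlapped a member. Of the 29 regions, 3 (10.3%) were gained with RANKL, meaning held by both RANKL libraries numbered 1 and 3 and by neither such untreated library, against 5.9% of all 18659 regions, and 0 were lost, against 0.241%. The 3 lay over neighbouring genes. They were chr8:84965581-84965951 in Rnaseh2a near Junb, the Gm3336 region near Jund and chr1:191072717-191073479 in Nsl1 at the edge of the Batf3 window. The Nsl1 region ran past that edge. RANKL replicates 2 and 3 met it only outside the window, over 0.357 and 0.349 kb, so by peaks inside the window it was not gained. Untreated replicate 2 held 0 of the 3 and RANKL replicate 2 held all 3. These lists cover 7.79 and 184.6 Mb, so the difference in length alone can give this outcome and it is no replication. Of the 9 regions that overlapped a member gene, 0 were gained or lost in either comparison, and 5 were held by all 10 lists. No share gained or lost over all regions was above 5.9%, so 0 of 9 is near the background. With RANKL+I-BET against RANKL, 0 regions were gained (background 0.638%) and 1, the Gm3336 region, was lost (2.99%). Without untreated replicate 3 the gained count was 6, and without RANKL+I-BET replicate 1 the lost count was 4. Across all members 15 of 29 regions (51.7%) were held by all 7 lists numbered 1 and 3, beside 48.2% of all regions.

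**Figure D4:**
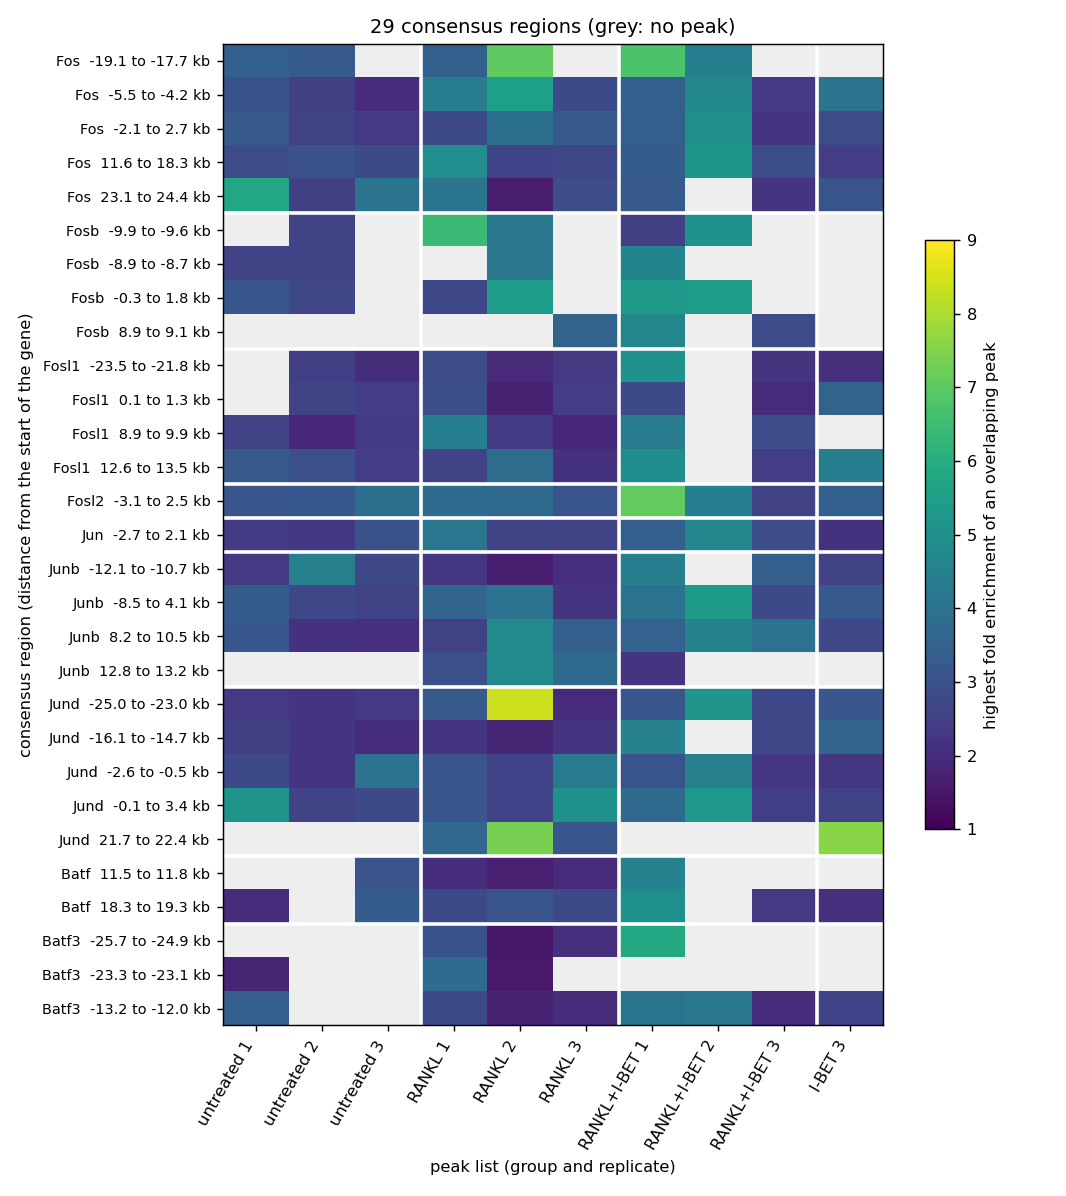
The 29 regions near the 9 genes (rows, with their distance from the gene's start in kb; for Fosl1 from its lower coordinate) in the 10 lists (columns), coloured by the highest fold enrichment of an overlapping peak, grey where none. The start regions of Fos, Fosl2, Jun and Junb are filled in all columns, and the Fos region at -19.1 kb and the Fosb start region are grey in every list numbered 3.

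Related genes, in 4 lists, gave 0 calls by limma in both comparisons, like the members. Of the 9 AP-1 dimer partners with a peak, such as the ATF and MAF factors, 6 were higher with RANKL in both libraries as deposited, where 49.8% of all genes were, and at one covered length 3 were higher and 2 lower, beside 18.3% and 12.9% of all genes. Of 18 covered upstream kinases and factors, which carry signals to the Fos and Jun genes, 12 were higher as deposited, and 4 were higher and 2 lower at one covered length. Among 15 other immediate early genes 12 were higher as deposited, and 2 were higher and 4 lower at one covered length. Among 7 covered osteoclast genes that AP-1 with NFATc1 acts on, 3 were higher as deposited, and 2 were higher and 0 lower at one covered length. As deposited, 0 genes of these lists were lower in both. At one covered length the medians of RANKL against untreated were -0.35, -0.42, -0.04 and 0.52 in that order, and of RANKL+I-BET against RANKL 0.33, 0.48, 0.26 and -0.35. In all 4 lists the medians of the 2 comparisons had opposite signs. Both comparisons use the same RANKL libraries, with opposite sign, so such mirroring arises by construction. The osteoclast list, with 6 genes tested, had the highest median for RANKL and the lowest for RANKL+I-BET, which is therefore not read as a reversal.

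Gained regions with RANKL lay near 3 of the 15 immediate early genes, and none of the 3 was called. Over all 18659 regions, 5.9% were gained and 0.241% lost with RANKL, and 0.638% were gained and 2.99% lost with RANKL+I-BET. The share of all genes with such a region in their window is not given, so these counts cannot be judged against it. Egr1, which encodes a zinc finger activator, had 1.36, 3.33 and 1.63 kb in the untreated lists, against 4.99, 27.1 and 4.28 kb in the RANKL lists, 5.34, 0.542 and 3.11 kb in the RANKL+I-BET lists and 3.04 kb in the I-BET list. Nr4a1, an orphan nuclear receptor gene, had 1.21, 2.68 and 0.979 kb in the untreated lists, against 3.25, 55.5 and 2.79 kb in the RANKL lists and 3.19, 1.15 and 1.03 kb in the RANKL+I-BET lists. Zfp36, whose product promotes the decay of cytokine mRNAs, had 10.9, 9.64 and 13.4 kb in the untreated lists, against 15.4, 35.6 and 15.1 kb in the RANKL lists. In these 3 genes, which were chosen for a region held by RANKL replicates 1 and 3 and by neither untreated replicate 1 nor 3, every RANKL value was above every untreated one as deposited, as it was in 33.3% of all genes. A lost region with RANKL+I-BET lay near Dusp2, a phosphatase gene of the MAP kinase pathway. Single regions were gained with RANKL near Nfatc1 and near Mef2c, which encodes a MADS box factor that drives Jun, one was lost with RANKL near the protease gene Ctsk, and gains with RANKL+I-BET lay near Elk3, Mapk14 and Map2k1. At Nfatc1 the untreated lists covered 6.69, 4.53 and 15.0 kb and the RANKL lists 12.5, 107.1 and 19.0 kb, and the groups overlapped.

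The genes whose covered length was most like that of the 3 most covered members were found over the 7 libraries numbered 1 and 3 at one covered length, as a description with no test. For Junb these were Slc1a5 (Pearson r = 0.998), Tm9sf3 (0.995) and Gm36712 (0.994). At one covered length Junb had 2.37 kb in RANKL replicate 3 and 12.1 to 15.2 kb in the other 6 libraries, so 1 library sets this pattern. For Jund they were Prox2 and Dlst (0.990 each) and Rps6kl1 (0.987), and for Fos Tom1l2 (0.930), Nuf2 (0.921) and Rpusd4 (0.920). The values are a ranking of 10946 genes over 7 points that share their list lengths.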

How the data were processed

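H3K27ac was mapped in 10 immunoprecipitated libraries with 1 peak list each, and 10 input samples without a list were left out. According to the submitters' processing notes, FastQC, Bowtie2 and MACS2 were used with mm10 (GRCm38), with no versions, and settings are not given in the sources used here. Each list is a broad-peak table as deposited. Its columns hold the authors' score, their fold enrichment (a linear ratio) and the -log10 of p and q, and they served to describe peaks and, by p or q, to rank and filter them within one list.

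Peaks were counted in the window from 25 kb before to 25 kb after each of 21887 protein-coding genes (RefSeq, GRCm38.p6). For the tests, each of 6 lists (replicates 1 and 3) was reduced by -log10 p to the covered length of the shortest, 16.05 Mb. limma 3.58.1 (R 4.3.3, trended prior, 3 residual degrees of freedom) fitted log2(covered bp + 500) for the 10946 genes with a mean of at least 500 bp, with Benjamini-Hochberg adjustment. Held means at least 1 bp of peak. The code was tested on simulated data.

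Replicate numbers were checked for pairing. Deviations of libraries with the same number correlated at 0.148 to 0.583 over 9 lists as deposited, at 0.221 to 0.301 over the 6 as deposited, and at 0.061 to 0.086 over the 6 at one covered length. Over the 9 lists, libraries with different numbers correlated at -0.519 to 0.384, so the ranges overlapped. Over the 6, different numbers gave the same values with the opposite sign, by construction with 2 libraries a group. The numbers were therefore taken as a possible pairing of the lists as deposited, from the data and not from the labels. A fit of the 6 libraries with the replicate number as a block was run at one covered length and, added after seeing the data, as deposited. The members' SE and p-values given above are from the fits without the block. With the block as deposited, RANKL minus untreated had an SE of 0.25 for Fosl2 (limma adjusted p = 0.228) and 0.14 for Junb (adjusted p = 0.392).

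The members, gene lists and markers were chosen with earlier results of these data known. Named were the members, genes at their regions, list genes past the threshold or with a gained or lost region (at most 4 a list), and the 3 genes most like each of the 3 most covered members. Counts of genes higher or lower in both libraries, and the count by replicate number, were added after seeing the data. Alternatives covered list length, all 9 libraries, pseudocount, filter, window, ranking, q threshold, overlap and each library left out. Python 3.11.15 was used for the rest.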

Additional observations from a re-analysis of the deposited data

Results flagged for a closer look

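RANKL replicate 2, which enters only an alternative fit of all 9 libraries, had more peak length than any untreated library at all 9 genes, and each of these values stood out for that reason. The covered length was 26.82 kb at Fos (highest untreated value 12.57 kb), 30.59 kb at Fosb (5.55 kb), 33.38 kb at Fosl1 (4.40 kb) and 28.22 kb at Fosl2 (3.94 kb). It was 9.955 kb at Jun (3.82 kb), 28.25 kb at Junb (15.0 kb) and 41.95 kb at Jund (6.93 kb), and 16.46 kb at Batf (0.991 kb) and 22.88 kb at Batf3 (0.659 kb). The same library exceeded every untreated library at 98.2% of 20183 genes and had peaks at 10 of 10 lymphocyte marker genes.

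Not all of the added peaks were weak. Upstream of Fos this list had peaks from 16.7 to 14.2 kb (fold enrichment 10.2) and from 11.8 to 10.6 kb (9.61), where no other list had a peak, against 3.91 at the Fos start in the same list. Their cause was not tested.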

How the results depend on the processing

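No gene was called by limma under any of the settings tried for the 3 comparisons. This includes the replicate block, with 0 genes called at one covered length (smallest adjusted p 0.687, 0.690 and 1.00) and 0 as deposited (0.228, 1.00 and 0.490), so the block changed no call. Of the members' 18 log2 differences, none of which was called, 218 alternative values kept the sign and 38 did not. Not all of the 218 could turn. Removing the filter, adding the block or leaving out a library outside the comparison leaves the estimate unchanged. Only the SE or the genes tested change then, so the tally is no measure of stability. The cause of a turned sign was not tested unless the construction shows it.

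With lists as deposited, with or without the block, RANKL minus untreated turned to 0.20 for Fos, 0.19 for Junb and 0.23 for Batf. RANKL+I-BET minus RANKL turned to -0.0736 for Fos, -0.0593 for Fosb, -0.24 for Fosl1, -0.0445 for Junb, -0.20 for Batf and -0.40 for Batf3. Peaks ranked by fold enrichment gave 0.0364 for Fos and -0.14 for Fosl1, and the 10 kb window -1.20 for Fosl1 (RANKL minus untreated). All 9 libraries at one covered length (3.44 Mb) gave -0.80 for Fosb and -2.03 for Fosl2, and 1.60 for Fosl2 with RANKL+I-BET.

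Leaving out each library in turn turned the sign of 10 differences. It gave, for RANKL minus untreated, -0.15 to 0.10 for Fos, -0.53 to 0.91 for Fosb, -0.74 to 1.11 for Fosl1, -0.0171 to 0.40 for Jun, -1.26 to 0.18 for Batf and -0.61 to 1.78 for Batf3. For RANKL+I-BET minus RANKL it gave -0.0426 to 0.36 for Fos, -0.15 to 0.27 for Jun, -0.51 to 1.15 for Batf and -0.91 to 1.48 for Batf3. Of those that kept their sign, RANKL minus untreated was 0.49 to 1.39 for Fosl2, -2.30 to -0.17 for Junb and 0.03 to 0.38 for Jund, and RANKL+I-BET minus RANKL was 0.68 to 1.94 for Fosb, 0.13 to 0.40 for Fosl1, -0.42 to -0.07 for Fosl2, 0.30 to 2.43 for Junb and -0.75 to -0.39 for Jund. A group of 1 library was then assumed to vary like the others.

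Gained regions with RANKL (3) became 1 with 50% coverage, 0 with a -log10 q of at least 5, 1 at one covered length, 0 in the 10 kb window and 4 to 6 with a library left out. Lost regions (0) became 2 at one covered length and 0 to 1 with a library left out. For RANKL+I-BET, gained regions (0) became 3 at one covered length and 0 to 1 with a library left out. Lost regions (1) became 0 with 50% coverage, 2 at one covered length, 0 in the 10 kb window and 1 to 4 with a library left out. The share of all genes moved with the counts of members higher or lower in both libraries. Members higher with RANKL (6) became 1 at one covered length (18.3% of genes), 2 in the 10 kb window (45.1%), 2 with the q threshold (24.2%) and 6 to 9 with a library left out (9 without RANKL replicate 1, 72.6%). Members lower (0) became 1 at one covered length (12.9%) and 0 to 1 with a library left out (1 without RANKL replicate 3, 5.94%). For RANKL+I-BET, members higher (0) became 2 at one covered length (13.3%) and 0 to 3 with a library left out (3 without RANKL+I-BET replicate 3, 24.4%). Members lower (1) became 2 to 6 with a library left out (6 without RANKL+I-BET replicate 1, 54.6%, and 5 without RANKL replicate 1, 53.8%).

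The 4 members (Fosl1, Jun, Batf and Batf3) did not pass the filter with all 9 libraries, and neither did Batf3 in the 10 kb window nor Fosb and Batf without RANKL+I-BET replicate 1. The unknown depth limits what the absence of a peak shows.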
